A study of Mus musculus with 12 samples.

Results

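The marker genes of mesangial cells, pericytes and vascular smooth muscle cells were examined in the renal cortex of nephrotic and normal mice: Acta2, Tagln, Myh11, Cnn1, Pdgfrb, Pdgfra, Pdgfb, Rgs5 and Des. Every probe set whose annotated symbol was one of these 9 genes was taken, which gave 20 of the 45101 probe sets of the Affymetrix Mouse Genome 430 2.0 array. Of the 20 probe sets, 15 lay above the median of their own array in at least 3 of the 12 arrays and were tested, and each of the 9 genes kept at least 1 probe set.

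The study compared ICGN mice, a strain with hereditary nephrotic syndrome that was derived from the ICR stock and carries a mutation of Tns2, with ICR mice as normal controls. Mice were 4 or 8 weeks old, and each strain and age had 3 arrays. ICGN mice differ from ICR mice at loci other than Tns2 as well, so a strain difference here is that of the whole background. The labels number the replicates without naming the animals, so a p-value here covers the spread between samples that may differ only technically. The Tns2 signal was 78.2 ± 15.9 in ICGN against 332 ± 12.96 in ICR for the 4-week arrays, and 74.2 ± 35.2 against 319.9 ± 14.6 for the 8-week arrays (mean ± SD, n = 3). The groups did not overlap at either age, and 0.1 is the smallest p-value that the two-sided exact permutation test allows with 3 arrays against 3.

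Mesangial cells hold the capillary loops of the glomerulus together, pericytes sit on the capillaries of the interstitium, and smooth muscle cells form the wall of arteries and arterioles. These cells share a contractile apparatus whose genes are driven by serum response factor and its myocardin family partners, and they are recruited to vessels by platelet-derived growth factor, which endothelial cells and platelets release and which binds the receptors encoded by Pdgfrb and Pdgfra. In scarring kidney, interstitial pericytes and fibroblasts are known to take up part of the contractile programme and are then called myofibroblasts. In RNA from whole cortex, fewer cells of a type and less RNA per cell cannot be told apart.

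Signals are given on a linear scale after every array had been brought to a common median of 40.4, and they do not compare 1 gene with another because probes differ in brightness. Differences are given as log2 values, with an offset of 11 added to each signal, and the median over the tested genes of a comparison is set to 0. The test was limma's moderated test on 12385 genes with Benjamini-Hochberg adjustment, run on the values before that median was subtracted, with an adjusted p of 0.05 or less as the threshold for a call. The median tested gene lay at -0.02 between the strains at 4 weeks and at -0.18 at 8 weeks, so at 8 weeks a member needed a larger positive than negative relative difference to be called.

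Acta2 encodes smooth muscle alpha-actin, the actin isoform used to recognise smooth muscle cells and myofibroblasts. It was read by a probe set, 1416454_s_at, of the kind that can match several related transcripts. The promoter windows of Acta2 and Cnn1, both of which fell with age, and of Rgs5, which was higher in ICGN mice, are shown for the binding sequence of serum response factor, the CArG box. Each line holds the 250 bases before the annotated start in RefSeq's GRCm38.p6 table, read 5′ to 3′ on the strand of the gene: Acta2 at chr19:34255374-34255623 on the minus strand, Cnn1 at chr9:22099003-22099252 and Rgs5 at chr1:169655251-169655500 on the plus strand. Capitals mark a CArG box with at most 1 mismatch among its 6 central A or T positions.
Acta2: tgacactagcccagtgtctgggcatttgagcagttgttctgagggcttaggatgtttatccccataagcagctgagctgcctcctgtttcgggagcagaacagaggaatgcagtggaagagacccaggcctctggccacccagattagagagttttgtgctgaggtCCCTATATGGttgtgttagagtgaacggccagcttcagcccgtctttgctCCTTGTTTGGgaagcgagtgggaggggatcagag
Cnn1: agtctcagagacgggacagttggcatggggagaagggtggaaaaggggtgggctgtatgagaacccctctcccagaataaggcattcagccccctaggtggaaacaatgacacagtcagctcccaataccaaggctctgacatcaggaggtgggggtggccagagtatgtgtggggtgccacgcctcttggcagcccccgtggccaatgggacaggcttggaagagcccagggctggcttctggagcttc
Rgs5: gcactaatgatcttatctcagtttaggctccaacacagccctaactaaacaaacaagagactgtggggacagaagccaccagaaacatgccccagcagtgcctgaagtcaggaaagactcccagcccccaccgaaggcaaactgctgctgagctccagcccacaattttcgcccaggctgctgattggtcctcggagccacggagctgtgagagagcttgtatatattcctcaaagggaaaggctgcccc

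The Acta2 window held 2 such matches, CCCTATATGG at -84 to -75 and CCTTGTTTGG at -34 to -25 from the start. The motif is its own reverse complement, so both strands were read at once. A match with at most 1 mismatch lay in 8.59% of 32851 promoter windows of this length, and a match without mismatch in 1.47%. Of the 9 members, 5 were matched to the promoter table (Acta2, Cnn1, Rgs5, Pdgfra and Des), and no match was found in the window of the other 4.

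In 4-week mice the Acta2 signal was 3353, 3566 and 3327 in the 3 ICR arrays and 4025, 3594 and 3201 in the 3 ICGN arrays. At 8 weeks it was 1421, 1462 and 1408 in ICR and 1525, 1566 and 1453 in ICGN. The strains overlapped at both ages, while every 8-week array lay far below every 4-week array. The strain difference was 0.09 ± 0.11 at 4 weeks (log2 ± SE, limma adjusted p = 0.833) and 0.27 ± 0.11 at 8 weeks (limma adjusted p = 0.587), and neither was called. The 8-week difference was called under quantile normalization (adjusted p = 0.0366) and under the authors' own scaling (adjusted p = 0.0449).

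Tagln encodes transgelin, an actin-binding protein of smooth muscle cells that is also used as a marker of myofibroblasts. Its signal at 8 weeks was 320.3, 314 and 328 in ICR and 604, 580.2 and 595 in ICGN. The 3 ICGN arrays lay within 2.05% (coefficient of variation) and the 3 ICR arrays within 2.12%, so the gap between the strains was many times the spread. Tagln was higher in ICGN by 1.05 ± 0.12 on the log2 scale (2.07-fold; limma adjusted p = 0.00015), with a ratio of the mean signals, which have no offset or centring, of 1.85. It stayed called in all 19 alternative settings that gave it a value, between 0.96 and 1.13. In the younger mice it was 1111, 884 and 980.2 in ICR and 1389.8, 1200.4 and 1023 in ICGN. These groups overlapped, and the difference of 0.29 ± 0.12 was not called (limma adjusted p = 0.316).

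Myh11 encodes the smooth muscle myosin heavy chain, the motor protein found in mature smooth muscle. At 8 weeks its signal was 134, 145 and 134 in ICR and 74.3, 80.5 and 51.2 in ICGN. All 3 ICGN arrays lay below all 3 ICR arrays, in the direction opposite to Tagln. The difference was -0.73 ± 0.17 (1.66-fold lower in ICGN; limma adjusted p = 0.000859), with a ratio of the mean signals, which have no offset or centring, of 0.499. It was called in all 18 alternatives, between -0.85 and -0.51. At 4 weeks the signal was 141, 187 and 196 in ICR and 152, 191 and 159 in ICGN, with overlapping groups and a difference of -0.03 ± 0.17 (limma adjusted p = 0.94). Its other probe set, 1418122_at, was never above an array median and was not tested.

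Cnn1 encodes calponin, a regulator of actin and myosin in smooth muscle. It lay above the array median in 7 of the 12 arrays, the 6 of 4-week mice and 1 ICR array of 8 weeks, and passed the filter through them. At 4 weeks the signal was 102, 77.0 and 75.005 in ICR and 144, 95.4 and 56.3 in ICGN. At 8 weeks it was 41.4, 13.3 and 28.1 in ICR and 39.3, 38.6 and 18.9 in ICGN. The strains overlapped at both ages, and the coefficient of variation within a group ran from 18.0% to 51.1%. Its 4-week difference of 0.14 ± 0.33 was not called (limma adjusted p = 0.924), and its 8-week difference of 0.38 was known only to within -0.31 to 1.07 (95% interval; limma adjusted p = 0.669).

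**Figure D1:**
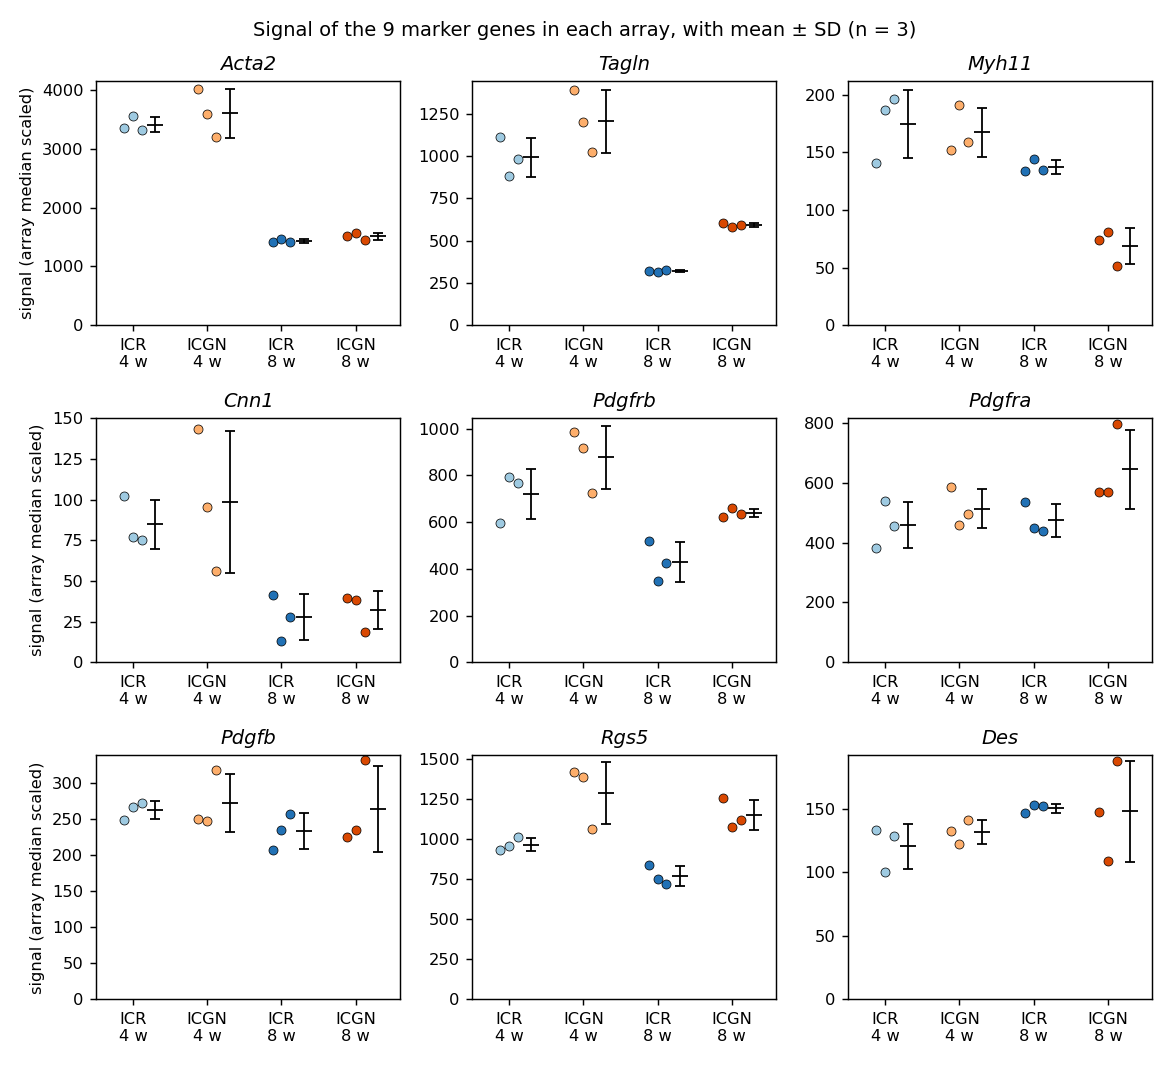
Signal (arrays scaled to a common median, linear axes starting at 0) of the 9 marker genes, 1 panel a gene; each point is 1 array and each bar beside the points the mean ± SD of a group of 3. At 8 weeks the ICGN arrays lie above the ICR arrays for Tagln, Pdgfrb, Pdgfra and Rgs5 and below them for Myh11, and Acta2, Tagln and Cnn1 are lower at 8 than at 4 weeks in both strains.

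Pdgfrb encodes the receptor for platelet-derived growth factor that marks pericytes and mesangial cells. At 8 weeks its signal was 519, 349 and 425 in ICR and 621, 659 and 636 in ICGN, so every ICGN array lay above every ICR array. The ICR arrays were the more scattered, and replicate 2 was the lowest of them. Pdgfrb was higher in ICGN by 0.76 ± 0.16 (1.69-fold; limma adjusted p = 0.0113), with a ratio of the mean signals of 1.48. Without ICR replicate 2 of 8 weeks the difference was 0.64 and the adjusted p 0.0524. Its other probe set, 1417148_at, read 121 ± 20.4 in ICR and 163 ± 12.3 in ICGN (mean ± SD, n = 3), a difference of 0.57 that was not called in the test of 21826 single probe sets (limma adjusted p = 0.0759). At 4 weeks the signal was 597, 793 and 769 in ICR and 986, 918 and 726 in ICGN, with overlap and a difference of 0.30 ± 0.16 (limma adjusted p = 0.443).

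Pdgfra encodes the other receptor, which marks interstitial fibroblasts and mesangial cells. At 8 weeks its brightest probe set, 1421917_at, read 536, 449 and 438 in ICR and 570.1, 569 and 796 in ICGN. The groups did not overlap, and the highest ICGN array stood apart from the other two. The difference of 0.61 ± 0.16 missed the threshold (limma adjusted p = 0.0512) and was called in 8 of 19 alternatives, the 3 other scalings among them. It was also called without ICR replicate 1 (adjusted p = 0.0379) or ICGN replicate 2 of 8 weeks (adjusted p = 0.0494). The other tested probe set, 1421916_at, read 46.6, 43.6 and 41.1 in ICR and 66.6, 63.1 and 86.7 in ICGN. When all 21826 probe sets of a single symbol were tested on their own, that probe set was called higher in ICGN by 0.75 (limma adjusted p = 0.0239). At 4 weeks the brightest probe set read 384, 539 and 455 in ICR and 586, 459 and 496 in ICGN, and the difference of 0.18 was not called (limma adjusted p = 0.717).

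Pdgfb encodes the ligand chain that endothelial cells and platelets release. Its signal at 8 weeks was 208, 235 and 258 in ICR and 225, 236 and 333 in ICGN. The groups overlapped and 1 ICGN array was high. The difference was 0.34 ± 0.15 (limma adjusted p = 0.456), against 0.06 ± 0.15 at 4 weeks (limma adjusted p = 0.947), when the signal was 249, 267 and 273 in ICR and 250.3, 248 and 319 in ICGN. The second Pdgfb probe set, 1450413_at, gave 0.17 at 8 weeks. Under the authors' scaling Pdgfb was called higher at 8 weeks (adjusted p = 0.0255).

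Rgs5 encodes a regulator of G protein signalling that dampens the response of pericytes and arteriolar smooth muscle to vasoactive hormones. At 8 weeks its probe set 1417466_at read 842, 749.5 and 722 in ICR and 1258, 1075 and 1120.2 in ICGN. The 3 ICGN arrays were above the 3 ICR arrays, and the difference of 0.75 ± 0.13 was called (1.69-fold; limma adjusted p = 0.00311). The ratio of the mean signals was 1.49. In 4-week mice the same probe set read 931, 959 and 1013 in ICR and 1420.3, 1387 and 1068 in ICGN. This was the only member whose strains did not overlap at 4 weeks, although the difference of 0.42 ± 0.13 was not called (limma adjusted p = 0.111). It was called without ICGN replicate 3 of 4 weeks (adjusted p = 0.0383), the lowest of its group.

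The 4 probe sets of Rgs5 did not give 1 answer. The probe set 1420942_s_at read 171, 97.7 and 135 in ICR and 295, 255 and 289 in ICGN at 8 weeks and was called higher by 1.19 ± 0.18 in the test of single probe sets (limma adjusted p = 0.000872). The probe set 1420941_at read 309, 66.8 and 285 in ICR and 132, 154 and 164 in ICGN, with overlapping groups and a difference of -0.12 (limma adjusted p = 0.635). The dimmest, 1420940_x_at, was above the array median in 3 arrays and gave -0.10 (limma adjusted p = 0.502). With the mean of its probe sets in place of the brightest, Rgs5 was 0.42 higher at 8 weeks and no longer called (adjusted p = 0.302). The probe sets also differed at 4 weeks, with 0.56 for 1420942_s_at, -0.09 for 1420941_at and -0.05 for 1420940_x_at. None of these was called in the test of single probe sets (limma adjusted p = 0.163, 0.947 and 0.95).

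Des encodes desmin, the intermediate filament of muscle that also marks mesangial cells and appears in injured podocytes. At 8 weeks its signal was 146, 153 and 152 in ICR and 148, 108 and 188 in ICGN. The ICGN arrays lay on both sides of the narrow ICR range, with a coefficient of variation of 26.8% against 2.42%. The difference was 0.13 with a 95% interval of -0.23 to 0.49 (limma adjusted p = 0.832). At 4 weeks the signal was 133, 100.4 and 128 in ICR and 132, 122 and 141 in ICGN, and the difference of 0.14 was not called (limma adjusted p = 0.81).

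**Figure D2:**
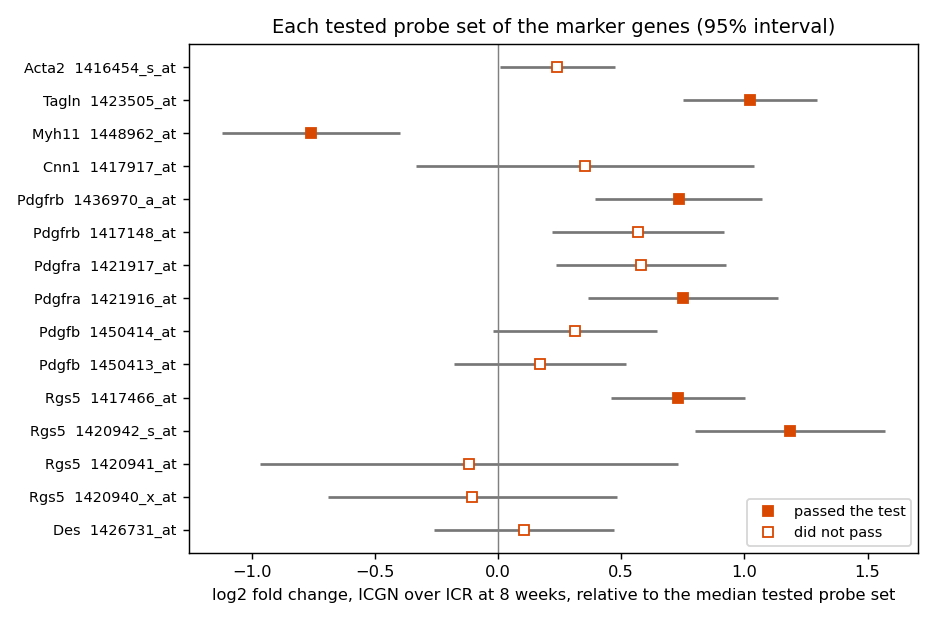
ICGN minus ICR at 8 weeks (log2, relative to the median tested probe set, with 95% intervals) for each of the 15 tested probe sets of the 9 genes; filled points passed limma's test across 21826 probe sets. Both Pdgfra probe sets lie above 0, while of the 4 Rgs5 probe sets 2 lie above 0 and 2 just below it.

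Counted over the 9 genes at 4 weeks, 0 were called by limma, while 2 (Tagln and Rgs5) had an unadjusted p under 0.05. Of all genes tested, 3.00% were called at that age (1.60% higher and 1.40% lower), and 10.8% had ICGN arrays all above the ICR arrays, as 1 member did. The median relative difference of the members was 0.14.

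At 8 weeks 3 of the 9 were called higher in ICGN (Tagln, Pdgfrb and Rgs5) and 1 lower (Myh11), against 8.52% of all genes called higher and 26.1% called lower, 34.6% in all. The ICGN arrays lay wholly above the ICR arrays for 4 members and wholly below for 1, against 11.2% and 33.3% of all genes, 44.5% in all. The median of the members was 0.38, where the lower and upper quartiles of all genes tested were -0.24 and 0.28. On the array-median scale used for the test, Tagln was 0.86, Pdgfrb 0.57, Rgs5 0.57 and Myh11 -0.92. Other scalings moved the share of higher among all 8-week calls, from 1055 higher and 3229 lower to 1702 and 1670 under quantile normalization, 1590 and 2431 when centred on the tested genes, and 2221 and 1488 under the authors' scaling. The members then called were 5 higher and 1 lower, 4 and 1, and 6 and 1.

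**Figure D3:**
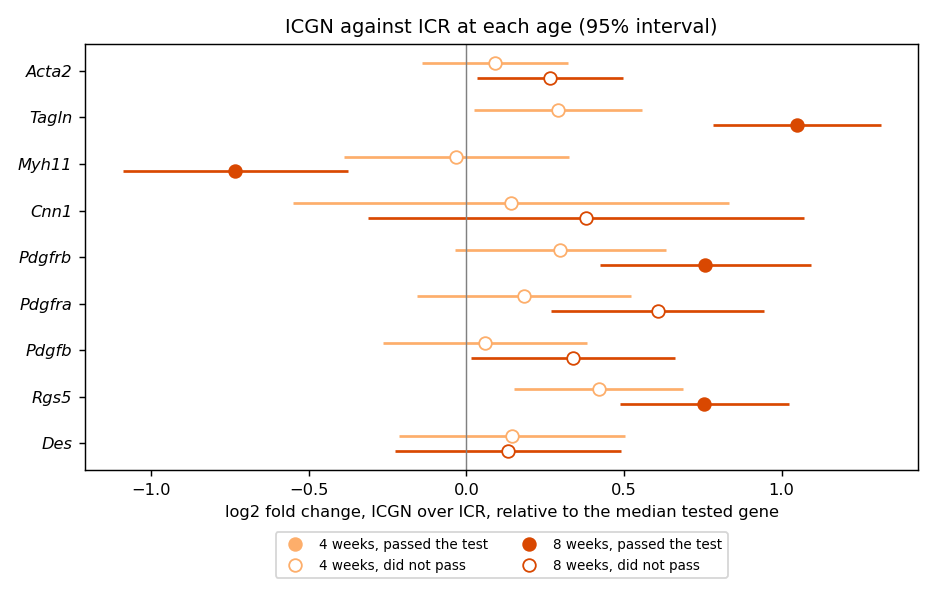
ICGN minus ICR (log2, relative to the median tested gene, with 95% intervals) of the 9 genes at 4 and at 8 weeks; filled points were called by limma across 12385 genes. At 8 weeks Tagln, Pdgfrb and Rgs5 are called above 0 and Myh11 below 0, and at 4 weeks no point is filled.

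Whether the strain difference itself changed between the ages was tested by the interaction term of the same fit. Myh11 was called, with a difference of the differences of -0.70 ± 0.24 (limma adjusted p = 0.0382), against 5.71% of all genes called in that direction and 7.95% in either. Tagln, at 0.76 ± 0.18, stood on the other side of the threshold (limma adjusted p = 0.0523). Other scalings exchanged them: under quantile normalization, centring on the tested genes and the authors' scaling Tagln was called (adjusted p = 0.0333, 0.0215 and 0.0174) and Myh11 was not (adjusted p = 0.0581, 0.0935 and 0.132). Tagln was also called without ICGN replicate 1 of 4 weeks (adjusted p = 0.0406). Myh11 lost its call when any of 9 of the 12 arrays was left out (adjusted p = 0.0522 to 0.092), and kept it without ICR replicate 3 of 4 weeks and, of the 8-week arrays, ICR replicate 1 or ICGN replicate 2. The other 7 members were not called, and ran from -0.01 for Des to 0.47 for Pdgfrb.

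Age was compared within each strain. The authors had scaled the arrays of the ages to different targets, so age and array processing cannot be told apart. The alternative named the authors' scaling divided each array by its own 2% trimmed mean, so both ages then had the same target. The Actb ratio of 3′ to 5′ signal, a measure of RNA integrity, was also higher at 8 than at 4 weeks on average in both strains. In ICR mice 4 of the 9 genes fell from 4 to 8 weeks and 0 rose, where 10.8% of all genes fell and 18.1% rose, 28.8% in all. Tagln fell by 1.68 ± 0.12 on the log2 scale (3.20-fold; limma adjusted p = 6.32e-07) and Acta2 fell by 1.34 ± 0.11 (2.52-fold; limma adjusted p = 1.39e-06). Cnn1 fell by 1.46 ± 0.33 (limma adjusted p = 0.00569), which was called without the filter as well, and Pdgfrb by 0.82 ± 0.16 (limma adjusted p = 0.00286). The 8-week arrays lay wholly below the 4-week arrays for 5 members, against 15.9% of all genes, and wholly above for Des, against 26.2% (42.1% in either direction). The difference of Des, 0.22, was not called (limma adjusted p = 0.193).

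Rgs5, the member besides these 4 whose ICR arrays did not overlap between the ages in the downward direction, gave -0.41 ± 0.13 (limma adjusted p = 0.0646) and was called under the 3 other scalings. In the test of single probe sets its 1420942_s_at was called at -0.70 (limma adjusted p = 0.0195). Its 1420941_at (-0.36) and 1420940_x_at (-0.04) were not called. Myh11 in ICR gave -0.40 (limma adjusted p = 0.183), Pdgfb -0.25 (limma adjusted p = 0.437) and Pdgfra -0.03 (limma adjusted p = 0.836). The 2 Pdgfra probe sets differed here: 1421916_at fell by 0.72 in the test of single probe sets (limma adjusted p = 0.0164), from 74.3 ± 5.62 to 43.8 ± 2.76 (mean ± SD, n = 3).

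In ICGN mice 4 of the 9 fell and 0 rose, where 12.8% of all genes fell and 6.46% rose, 19.3% in all. Acta2 fell by 1.16 ± 0.11 (2.24-fold; limma adjusted p = 5.54e-06), Myh11 by 1.10 ± 0.17 (2.14-fold; limma adjusted p = 0.000291) and Tagln by 0.92 ± 0.12 (1.89-fold; limma adjusted p = 0.000106). Cnn1, which passed the filter in this strain through its 4-week arrays, all its 8-week arrays lying below the array median, had a value of -1.22 ± 0.33 (limma adjusted p = 0.0114) and of -1.23 with no filter (adjusted p = 0.0226). It was not called without ICGN replicate 1 of 4 weeks (adjusted p = 0.0687) or replicate 3 of 8 weeks (adjusted p = 0.052). Pdgfrb, at -0.36 ± 0.16, was not called (limma adjusted p = 0.0615), although its 8-week arrays all lay below the 4-week arrays, as for 5 members in all and 25.8% of all genes (37.9% had no overlap in either direction). Pdgfrb was called without ICGN replicate 3 of 4 weeks (adjusted p = 0.0319). Pdgfra at 0.39, Des at 0.20, Pdgfb at 0.03 and Rgs5 at -0.08 were not called. The comparisons within ICR and within ICGN set different arrays against each other, but each shares its arrays with the strain comparisons. All comparisons also share 1 estimate of the spread of a gene, from the fit of all 12 arrays.

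**Figure D4:**
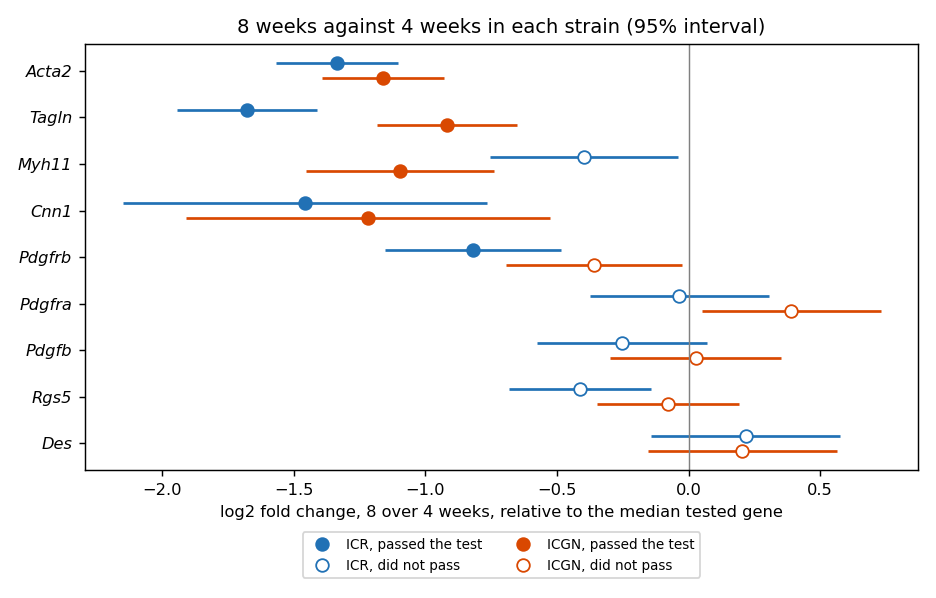
Change from 4 to 8 weeks (log2, relative to the median tested gene, with 95% intervals) of the 9 genes in ICR and in ICGN mice; filled points were called by limma across 12385 genes. Acta2, Tagln and Cnn1 are called below 0 in both strains, Pdgfrb in ICR and Myh11 in ICGN.

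The profiles over the 12 arrays were compared by the root mean square difference between log2 values centred on each gene's mean, as a description across arrays that share strain, age and processing. The values were not scaled for size, so genes that vary little lie close to each other whatever their direction. Among the members Pdgfrb and Rgs5 were closest to each other, at 0.221, followed by Pdgfb and Des at 0.237. Tagln lay nearest to Dbf4 (0.172), Prim1 (0.207) and Lpar2 (0.209), and Myh11 to Rdh16 (0.185), Tpcn1 (0.200) and Susd2 (0.204). Pdgfrb lay nearest to Krt7 (0.140), Plagl1 (0.144) and Adamtsl4 (0.151), and Rgs5 to Plekhg2 (0.134), Tmem98 (0.136) and Tmem72 (0.136). No other member was among the nearest 3 genes of these 4.

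Other genes of the contractile apparatus were read from a list of 20, of which 19 were tested. At 4 weeks limma called 0 of them, 6 had an unadjusted p under 0.05, and 1 was called higher under each of the 3 other scalings. At 8 weeks 6 were called higher in ICGN and 1 lower, with a median of 0.54. These were 31.6% and 5.3% of the genes tested in the list, against 8.52% and 26.1% of all genes tested. The highest were Actn1, an actin crosslinker at focal adhesions, at 1.11 ± 0.15 (limma adjusted p = 0.000268), Tpm1, a tropomyosin, at 1.10 ± 0.13 (limma adjusted p = 0.00015), and Flna, a filamin that crosslinks actin, at 0.99 ± 0.13 (limma adjusted p = 0.000254). These genes are expressed in many cell types besides smooth muscle. The counts under quantile normalization, centring on the tested genes and the authors' scaling were 10, 8 and 12 higher and 0 lower. With age, 10 of the 19 fell and 1 rose in ICR (52.6% and 5.3%, against 10.8% and 18.1% of all genes). Smtn, smoothelin of contractile smooth muscle, fell by 1.35 ± 0.16 (limma adjusted p = 4.54e-05) and Myl9, a myosin light chain, by 0.98 ± 0.11 (limma adjusted p = 3.37e-05). In ICGN 7 fell and 2 rose (36.8% and 10.5%, against 12.8% and 6.46% of all genes). The counts were 4 and 3 when centred on the tested genes and 4 and 2 under the authors' scaling. In this strain Smtn fell by 0.83 ± 0.16 (limma adjusted p = 0.00136) and Myl9 by 0.66 ± 0.11 (limma adjusted p = 0.000371).

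Of 12 genes listed as regulators of the serum response factor and myocardin programme, 10 were tested. At 8 weeks 1 was higher in ICGN and 2 lower, while quantile normalization and centring on the tested genes each gave 3 higher and 1 lower, and the authors' scaling 4 and 1. Tgfb1, the growth factor that drives myofibroblast formation, was higher by 0.71 ± 0.14 (limma adjusted p = 0.00825) and Fhl1, a LIM domain protein of muscle, was lower by -0.56 ± 0.14 (limma adjusted p = 0.00115). The lower call of Tead1 (-0.17) was lost under the 3 other scalings. With age 3 rose and 2 fell in ICR (3 and 4 under the authors' scaling). These were 30.0% and 20.0% of the list, against 18.1% and 10.8% of all genes. In ICGN 1, Tgfb1, fell by 0.34 ± 0.14 (limma adjusted p = 0.0407), a call that was lost under the 3 other scalings.

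The list of PDGF ligands and signalling molecules had 15 genes, 14 of them tested. At 4 weeks 1 was called, Nrp1, a co-receptor, higher in ICGN by 0.55 (limma adjusted p = 0.0263). That was 7.1% of the list, where 3.00% of all genes were called. At 8 weeks 1 was called higher and 2 lower, with a median of 0.06. These were 7.1% and 14.3% of the genes tested in the list, against 8.52% and 26.1% of all genes tested. Quantile normalization and centring on the tested genes each gave 2 higher and 2 lower, and the authors' scaling 3 and 2. Stat3, a transcription factor downstream of many receptors, was higher by 0.77 ± 0.12 (limma adjusted p = 0.00197). The lipid kinase subunit Pik3ca, at -0.55 ± 0.14 (limma adjusted p = 0.00142), and the adaptor Gab1, at -0.38 ± 0.12 (limma adjusted p = 0.00265), were lower. The ligand genes Pdgfa (0.15), Pdgfc (0.15) and Pdgfd (0.56) were not called at 8 weeks (limma adjusted p = 0.864, 0.902 and 0.165). With age 3 rose and 1 fell in ICR (3 and 2 under each of the 3 other scalings), and 2 rose and 1 fell in ICGN (3 and 1 under each). In the main fit these were 21.4% and 7.1% in ICR, against 18.1% and 10.8% of all genes. The ICGN shares were 14.3% and 7.1%, against 6.46% and 12.8%.

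A further list held 23 pericyte and mesangial genes, of which 21 were named on the array and 17 tested. At 4 weeks 0 were called by limma (4 had an unadjusted p under 0.05), and at 8 weeks 4 were higher in ICGN and 1 lower, with a median of 0.26 (5 and 1 under quantile normalization, 6 and 1 when centred on the tested genes, 6 and 0 under the authors' scaling). The 8-week shares were 23.5% higher and 5.9% lower, against 8.52% and 26.1% of all genes tested. Gucy1a1, a subunit of the nitric oxide receptor of pericytes and smooth muscle, was higher by 1.08 ± 0.13 (limma adjusted p = 0.000148), and S1pr3, a sphingosine phosphate receptor, by 0.97 ± 0.17 (limma adjusted p = 0.00252). Abcc9, the channel subunit of pericytes, was lower by -0.44 ± 0.14 (limma adjusted p = 0.00401), a call that was lost under the authors' scaling. In ICR 2 rose and 6 fell with age (11.8% and 35.3% of those tested, against 18.1% and 10.8% of all genes). Quantile normalization gave 2 and 7, and centring on the tested genes and the authors' scaling each gave 1 and 7. In ICGN 1 rose and 2 fell (5.9% and 11.8%, against 6.46% and 12.8% of all genes). Quantile normalization and the authors' scaling each gave 1 and 3. Notch3, a receptor of mural cells, fell by 0.68 in ICR and by 0.62 in ICGN (limma adjusted p = 0.00235 and 0.00125). Gucy1a1 fell by 0.65 in ICR (limma adjusted p = 0.00464) and rose by 0.67 in ICGN (limma adjusted p = 0.00535).

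**Figure D5:**
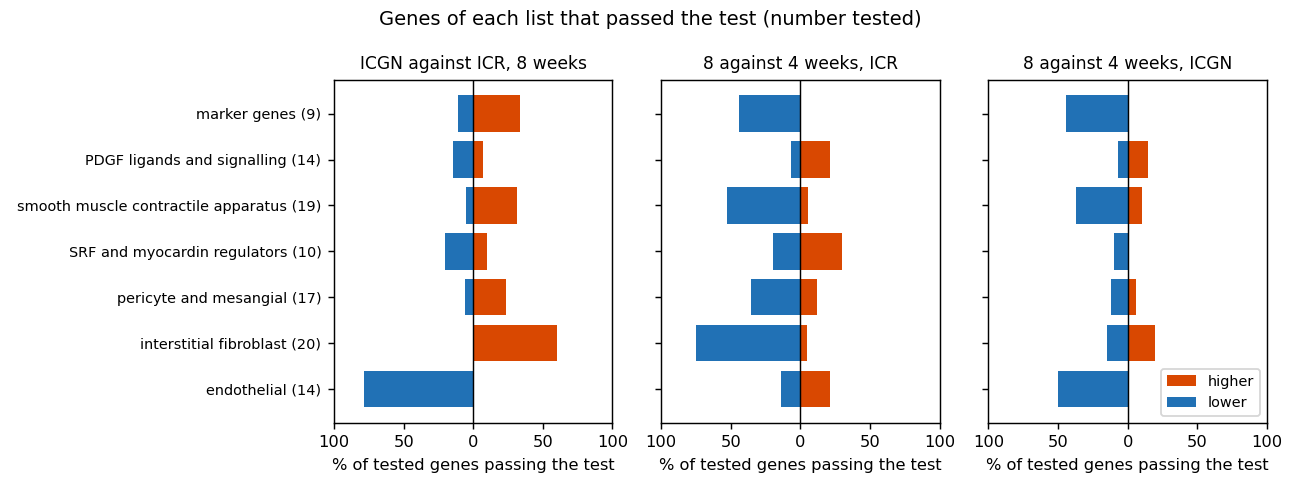
Share of the tested genes of each list that limma called higher (bars to the right) or lower (bars to the left), in percent, for ICGN against ICR at 8 weeks and for 8 against 4 weeks in each strain; the number tested stands beside each list. At 8 weeks 31.6% of the contractile list and 60.0% of the fibroblast list are higher in ICGN, and 78.6% of the endothelial list is lower (11 of 14, against 7 or 8 of 14 under the 3 other scalings).

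Markers of other cell types differed as well, in both directions, where 8.52% of all genes were called higher at 8 weeks and 26.1% lower. Of 20 tested interstitial fibroblast genes, 12 were higher in ICGN at 8 weeks and 0 lower, and 15 fell and 1 rose with age in ICR. In ICGN 4 of them rose and 3 fell with age. Their summed signal was 12801 to 14694 in the ICR arrays at 8 weeks and 22108 to 29150 in the other 9 arrays. Of 11 macrophage genes 10 were higher in ICGN at 8 weeks, and 6 already at 4 weeks, when 1.60% of all genes were called higher. The summed macrophage signal at 8 weeks was 7500.2 to 9335 in ICGN and 3470.4 to 4749 in ICR. Of 14 endothelial genes 11 were lower in ICGN at 8 weeks, with sums of 4526 to 5299 against 6685 to 7931. Under quantile normalization, centring on the tested genes and the authors' scaling, 8, 8 and 7 of the endothelial genes were lower. Of 12 proximal tubule genes 9 were lower, against 4, 8 and 6 under those scalings, and their median went from -0.39 to -0.16 under quantile normalization. Of 9 podocyte genes 2 were higher. The part of these cell types in the differences of the 9 members was not tested.

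The list of skeletal and cardiac muscle genes had 3 of 14 genes tested, and 7 of the 14, Myh4, Myh6, Myh7, Tnnt3, Tnnt2, Tnnc2 and Actn3, were never above an array median. Its sum was 223 to 382 over all arrays. Among the 3 tested, Acta1, the skeletal muscle alpha-actin, was higher in ICGN at 8 weeks by 1.21 ± 0.28 (limma adjusted p = 0.011). Acta1 also fell with age, by 1.58 ± 0.28 in ICR (limma adjusted p = 0.00109) and by 0.97 ± 0.28 in ICGN (limma adjusted p = 0.0158). The urothelial sum, which would show renal pelvis in the sample, was 266 to 519 and overlapped between the strains at both ages, although Krt20 was higher in ICGN at 8 weeks by 1.91 ± 0.35 (limma adjusted p = 0.00167). Of 5 tested platelet genes limma called 0 at 8 weeks, 2 had an unadjusted p under 0.05, and 2 were called higher when centred on the tested genes and under the authors' scaling. All 9 podocyte genes and all 12 proximal tubule genes named on the array were above the array median in each of the 12 arrays, so the labelled cortex carried its defining markers. The ratio of the 3′ to the 5′ control probe set of Actb, a measure of RNA integrity, was 1.61 ± 0.0376 in the 8-week ICGN arrays against 1.94 ± 0.210 in the 8-week ICR arrays, and 1.40 ± 0.0770 against 1.39 ± 0.0507 in the 4-week arrays (mean ± SD, n = 3; two-sided exact permutation p = 0.1 and 0.8). Within ICR the ratio thus went from 1.39 to 1.94 with age and within ICGN from 1.40 to 1.61. Its part in the 8-week strain differences and in the falls with age was not tested.

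Besides the untested Myh11 probe set, 4 member probe sets were above the array median in 0 arrays: 1456658_at and 1444105_at of Acta2, 1438946_at of Pdgfra and 1426732_at of Des. None of the 5 exceeded a signal of 38.5 on any array.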

How the data were processed

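Renal cortex RNA of 4 groups of 3 arrays was read on Affymetrix Mouse Genome 430 2.0 arrays. The deposited values are intensities, MAS5 signals per the submitters' processing notes. From the values, the 2% trimmed mean of each array is 100.0 at 4 weeks and 500.0 at 8 weeks, and the deposited medians are 17.4 to 19.0 and 75.3 to 108, so the authors had scaled the ages to different targets. Array number, not read depth, limits the precision here.

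Every array was scaled to a common median of 40.4, 11 (the 25th percentile of the table) was added as offset, and log2 was taken. Of 45101 probe sets, 34945 carried 1 symbol in GEO's platform annotation, 932 several and 9224, the 64 controls included, none. Probe sets above their array's median in at least 3 of 12 arrays were kept (21826 with 1 symbol), and the probe set of highest mean, with the _x_at kind taken last, stood for each of 12385 genes. Means of 4 groups were fitted with limma 3.58.1 (mean-variance trend, 8 residual degrees of freedom) in R 4.3.3 for 5 comparisons, each adjusted by Benjamini-Hochberg. The script was tested on simulated data. Arrays of a group correlated at 0.977 to 0.989 over the 12385 tested genes, and no pair was identical.

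The members and the 12 other gene lists were chosen with earlier results of these data known. All members were described, and from each other list the counts, the median and up to 3 called genes a comparison with the smallest adjusted p, plus the 3 genes nearest in profile to each member called between the strains. Pdgfa, Pdgfc and Pdgfd, Krt20 and the muscle genes at or below the median were named after their values were seen. Alternatives were other offsets, scalings, filters, probe set rules, variance models, array weights, the replicate number as a block and leaving out each array.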

Additional observations from a re-analysis of the deposited data

Results flagged for a closer look

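For 7 of the genes named, the strain difference at 8 weeks was not that at 4 weeks by the interaction term (log2, limma adjusted p over 12385 genes, 3 arrays a group). These were 1 of 9 members, 2 of 14 PDGF genes and 1 of 19 contractile genes tested. The others were 1 of 10 regulators and 2 of 17 pericyte and mesangial genes. Of all genes tested, 7.95% were called. The member was Myh11, whose difference went from -0.03 to -0.73, an interaction of -0.70 (adjusted p = 0.0382).

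Among contractile and mural cell genes, Flna went from 0.11 to 0.99, an interaction of 0.89 (adjusted p = 0.0246), and Gucy1a1 from -0.24 to 1.08, an interaction of 1.33 (adjusted p = 0.00407). Abcc9 went from 0.12 to -0.44, an interaction of -0.55 (adjusted p = 0.0404). Among the signalling and regulator genes, Nrp1 went from 0.55 to 0.05, an interaction of -0.49 (adjusted p = 0.0311), Pik3ca from 0.08 to -0.55, an interaction of -0.62 (adjusted p = 0.0289), and Tead1 from 0.22 to -0.17, an interaction of -0.39 (adjusted p = 0.0426).

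Flna and Gucy1a1 were called under quantile normalization, centring on the tested genes and the authors' scaling as well. Myh11, Abcc9 and Tead1 were called under none of these 3, Pik3ca under centring alone, and Nrp1 under centring and the authors' scaling. The causes were not tested.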

How the results depend on the processing

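Of 247 alternative values of the 13 called member results, 228 kept direction and call, 19 lost the call and 0 reversed. The losses were uneven: 15 of the 19 belonged to the Myh11 interaction, which was called in 8 of its 23 alternatives. Applying the authors' scaling to the age changes and the interaction was chosen after seeing the data.

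Genes called at 4 weeks numbered 372, against 566 under quantile normalization, 841 with array weights and 171 to 303 with 1 array left out (194, 171 and 232 without ICGN replicate 1, ICGN replicate 2 and ICR replicate 2 of 4 weeks). For the interaction they numbered 984, 1658 with array weights and 472 to 1061 with 1 array left out, lowest without any ICGN array or ICR replicate 2 of 4 weeks, ICGN replicate 1 or ICR replicate 3 of 8 weeks. The age change in ICR gave 3571 genes (28.8% of those tested). Testing every probe set on its own gave 6023 probe sets of 21826 (27.6%), another unit and a like share. The age change in ICGN gave 2390 genes (19.3%), with 4289 probe sets (19.7%) when each was tested on its own, and 5369 genes with array weights and 1498 to 2180 with 1 array left out, lowest without ICGN replicate 1 or 2 of 4 weeks.

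Members called at 4 weeks were 0, with array weights 1 (Rgs5), and 0 to 1 with 1 array left out. At 8 weeks they were 4, under the authors' scaling 7, and 3 to 5 with 1 array left out. For the interaction they were 1, with no offset, array weights or the replicate block 2, with no filter, every probe set or no mean-variance trend 0, and 0 to 1 with 1 array left out. In ICGN with age they were 4, with the filter at the 75th percentile 2, where Cnn1 and Myh11 were not tested, and 3 to 5 with 1 array left out. In ICGN with age array weights gave 6.

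Same-numbered arrays deviated from their group means with correlations of -0.093 to 0.0934 over 12 pairs, so the numbers are not taken to pair the samples. The replicate block added Tagln to the interaction (adjusted p = 0.0374) and Rgs5 to the ICR age change (adjusted p = 0.0486), and gave 395, 4536, 1322, 3863 and 2599 genes called at 4 weeks, at 8 weeks, for the interaction, in ICR and in ICGN.

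Only uncalled member values reversed. With 4 times the offset the interaction of Des was 0.0048. With the mean of its probe sets the ICGN age change of Pdgfb was -0.16. Array weights gave Pdgfb -0.029 and Des -0.069 in ICGN with age, Des -0.16 at 8 weeks and Pdgfb -3.224e-05 at 4 weeks. With 1 array left out, ranges at 4 weeks were -0.17 to 0.043 for Myh11, -0.15 to 0.46 for Cnn1 and -0.048 to 0.11 for Pdgfb. For the interaction they were -0.12 to 0.19 for Des and -0.076 to 0.55 for Cnn1, in ICGN with age -0.084 to 0.13 for Pdgfb and -0.22 to 0.0017 for Rgs5, and in ICR with age -0.15 to 0.11 for Pdgfra. The causes were not tested.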

Other observations

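Among the 3 ICGN arrays of 4 weeks, replicate 1 had the highest value for 6 of the 9 members and replicate 3 the lowest for 5. The contractile members (Acta2, Tagln, Myh11 and Cnn1) deviated from the group mean by 0.21 on the log2 scale in replicate 1 and by -0.27 in replicate 3, on average. In the ICR arrays of 4 weeks the same mean deviations ran from -0.03 to 0.03.

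Among the ICGN arrays of 8 weeks, replicate 3 held the highest Pdgfra (796), Pdgfb (333) and Des (188) and the lowest Acta2 (1453), Myh11 (51.2) and Cnn1 (18.9) of its group. These values were singled out after they were seen, and no test was made of them.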
